A study of Mus musculus with 4 samples.

Results

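Integrins and the proteins of focal adhesions, the structures through which cells grip the extracellular matrix, were examined in fibroblasts taken from mouse mammary tumours. The set was a list of 40 genes given by name, 19 integrin chains and 21 focal adhesion components, out of 22456 genes in the table. All 40 were present, and 38 reached the limit for testing, a mean over the libraries of at least the log2 of 10. The epithelial integrin chain Itgb6, at 1.57, and Fermt1, the epithelial kindlin, at -0.42, lay below it and were not tested.

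Tumours grew in the mammary fat pad of Balb/cAnN mice for 8 days after injection of 4T1, a Balb/c mammary carcinoma line. The cancer cells had been kept before injection for 5 days in DMSO, the solvent (2 libraries), or in 5 µM GSK269962A, a small-molecule inhibitor (GSK, 2 libraries). The compound was given to the cancer cells and not to the mice, so the fibroblasts are untreated host cells of tumours with a different history, and cells bearing CD45, CD31, CD326 or human CD2 were removed from both groups over magnetic columns. The age of the mice is not given, nor is it said that replicate libraries stem from different animals, and the p-values therefore speak of the spread among these 4 libraries, which may be technical. The fraction that remained is defined by what was taken out, and pericytes and smooth muscle cells were not among the cells targeted.

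An integrin is a pair of 1 alpha and 1 beta chain that spans the membrane. The alpha chain largely sets the ligand: some bind collagen, some laminin, and some the short arginine-glycine-aspartate (RGD) motif of fibronectin, vitronectin and latent TGF-beta. Inside the cell, talin and kindlin bind the beta tail and switch the receptor on, vinculin, actinin and filamin tie it to actin filaments, and focal adhesion kinase, Src, p130Cas and paxillin pass the signal on. Fibroblasts use these contacts to pull on and arrange collagen and fibronectin, and the pull comes from myosin acting on actin filaments.

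All 12 fibroblast markers were above the limit in the mean, led by Col1a1. Their averages were 14.79 and 14.77 in DMSO and 14.67 and 14.66 in GSK. The estimate was positive in 4 of the 12 and negative in 8, where 49.5% of all genes were positive. In 5 both GSK libraries were lower and in 1 both were higher, against 24.5% and 24.1% of all genes. Pdpn, Dpt and Dcn were among the 5 (-0.37, -0.35 and -0.31). None of the 12 passed the test (smallest limma adjusted p = 0.0603, Dpt). Markers of the removed cells were low on average but not throughout: leukocyte markers averaged 4.04 to 4.23 (6 of 9 above the limit), endothelial markers 4.48 to 4.53 (6 of 10) and epithelial and 4T1 markers 3.41 to 3.56 (5 of 11), with Epcam at 0.32, Pecam1 at 3.31 and Ptprc, which encodes CD45, at 3.81, the targets of the depletion. Other markers of the same lists stood much higher: Cd53 was at 11.03, Krt19 at 8.82, Tek at 7.64, Esam at 7.41 and Lcn2 at 6.98. Of the leukocyte types listed apart, macrophage markers averaged 3.43 to 3.45 (4 of 10 above the limit). Lymphocyte markers averaged 1.49 to 1.56 (1 of 9) and neutrophil markers 0.58 to 0.60 (0 of 6). The highest of each were Csf1r at 8.28, Cd3e at 8.62 and S100a9 at 1.17. The table holds no read counts, and sequencing depth is therefore unknown.

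The comparison of GSK with DMSO asks whether the fibroblasts' adhesion machinery differed when the cancer cells had been pre-treated. None of the 38 tested genes passed an adjusted p of 0.05 in limma, where 41 of 14548 genes did (0.282%). Pxn (0.0578) and Itgb5 (0.0688) had the smallest adjusted p and were the only 2 of the 38 under 0.10, where 2.50% of all genes were, and differences ran from -0.29 for Pxn to 0.34 for Itgb5. At an unadjusted p under 0.05 were 11 of the 38, against 16.0% of all genes: 9 were higher in GSK, against 7.88% of all genes, and 2 were lower, against 8.13%. In 21 of the 38 both GSK libraries lay above both DMSO libraries, which held for 24.1% of all genes, and in 5 both lay below, which held for 24.5% (26 in either direction, against 48.6% of all genes). The estimate was positive in 30 of 38 (49.5% of all genes) with a median of 0.088, where the median of all genes was -0.001.

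The pattern was smaller without 1 control library. DMSO library 1 was the lowest of the 4 in 25 of the 38 genes, and in 27.4% of all genes. Without it, when the remaining DMSO library is assumed to vary like the GSK libraries, the median difference was 0.05, the estimate was positive in 28 genes, and 6 genes had an unadjusted p under 0.05, against 9.0% of all genes. Of the markers of pericytes and smooth muscle, too, 11 of 13 were lowest in DMSO library 1. The order of the other 3 libraries varied, and all 13 were above the limit. The log2 of their summed level was 16.12 (library 1) and 16.39 (library 2) for DMSO against 16.44 and 16.54 for GSK. Their estimates were positive in 11 and negative in 2, with a median of 0.222, and none passed the adjusted threshold. Both GSK libraries were higher in 7 and lower in 2, against 24.1% and 24.5% of all genes. At an unadjusted limma p under 0.05, 6 were higher and 1 lower, against 7.88% and 8.13% of all genes. Genes of the dissociation stress list lay the other way: the log2 of their sum was 18.03 and 17.92 in DMSO and 17.75 and 17.50 in GSK. All 13 estimates were at or below 0 (median -0.426). In 11 both GSK libraries were lower, against 24.5% of all genes. At an unadjusted limma p under 0.05, 10 were lower, against 8.13% of all genes. The adjusted threshold was passed by 2, Hspa1a and Hspa1b, as by 0.131% of all genes in that direction. The part of these markers, or of the lower fibroblast markers, in the integrin and focal adhesion values was not tested, and in bulk RNA fewer cells of a type and less RNA per cell cannot be told apart.

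**Figure D1:**
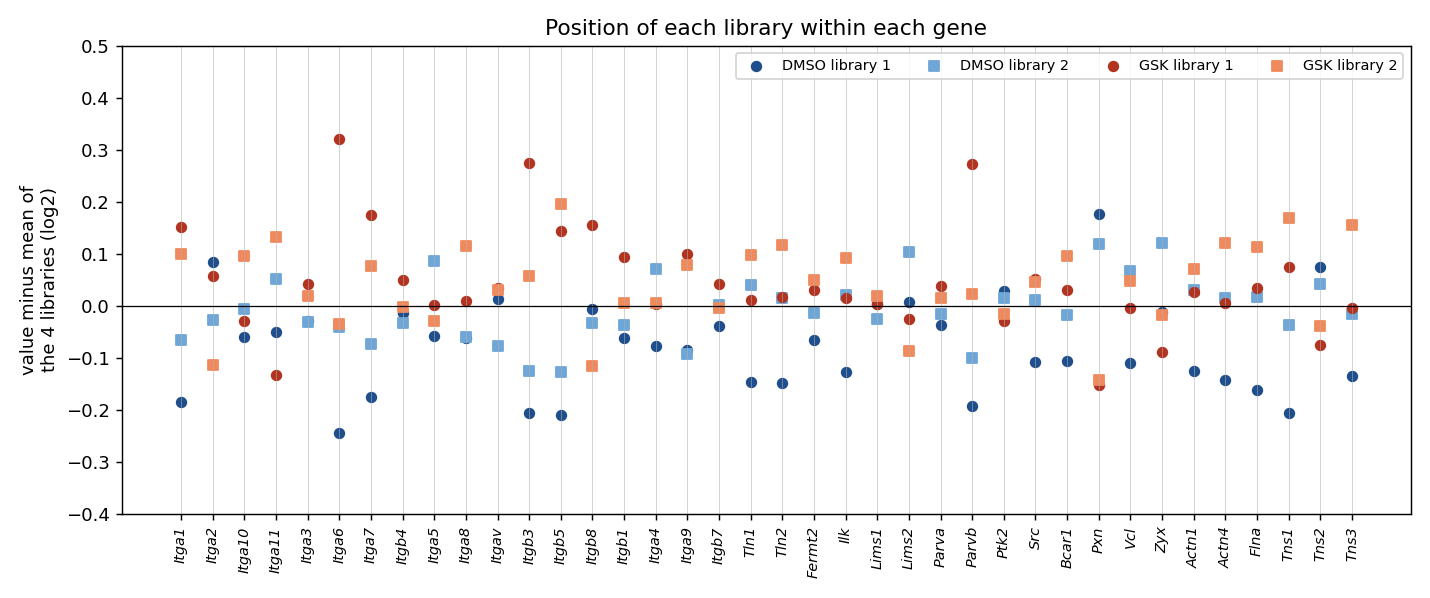
Each library's value minus the mean of the 4 libraries (vertical axis, log2) for the 38 tested genes (horizontal axis). Dark blue circles, DMSO library 1, are the lowest point in 25 genes; Pxn is the clearest case of both GSK libraries (red and orange) below both DMSO libraries.

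Levels of different genes can be set beside each other only per length, and here the length used mattered. The longest protein-coding transcript was chosen after seeing the data, since the median transcript of several genes is a short annotated fragment. With it Itgb1, the beta chain that pairs with most alpha chains, stood at 13.06 (log2 per kb, mean of 4 libraries), followed by Itgb5 at 11.59 and Itgb3 at 8.85. That order of the 3 leading beta chains was the same with the median protein-coding transcript and with the union of exons. Among alpha chains Itga5, the fibronectin receptor chain, stood at 12.21, Itgav at 8.95 and Itga9 at 8.51, and these were the leading 3 under every length. Itga5 led with the longest transcript and the union of exons, while Itgav led with the median transcript (12.31 against 12.21), which is 688 bases long for Itgav. Of the chains that bind collagen, Itga1 was at 7.57 and Itga11 at 7.31, and their order switched with the union of exons. Itga4 and Itga3 were the lowest alpha chains under every length, at 2.59 and 2.78, and Itgb6 the lowest beta chain, at -0.70. Among focal adhesion genes Flna led with the longest transcript (12.47) and the union of exons, and Tln1 with the median transcript (13.91).

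**Figure D2:**
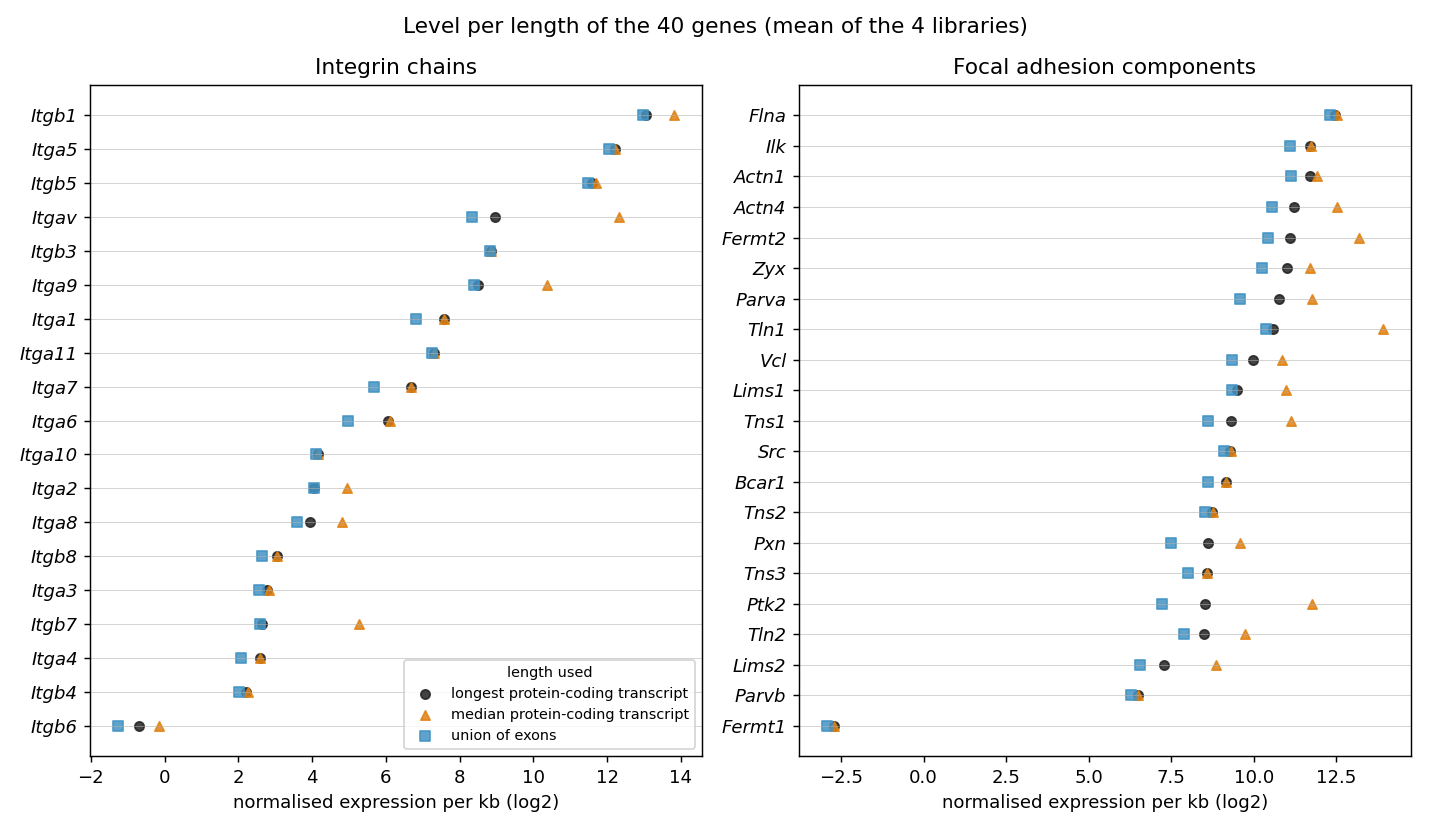
Normalised expression per kilobase (horizontal axis, log2, mean of the 4 libraries) of the 19 integrin chains (left) and 21 focal adhesion genes (right), with 3 ways of taking the length. Itgb1, Itga5 and Itgb5 lead the integrins with the longest transcript, while Ptk2, Itgav and Tln1 move most with the length used.

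Of the alpha chains that bind collagen, 1 of 4 had non-overlapping groups, against 48.6% of all genes. The class median was 0.033, and 0.13 without GSK library 1. Itga1 (chromosome 13, 114953096 to 115101964 on GRCm38), the chain of the alpha1beta1 receptor for basement-membrane and fibrillar collagen, had 10.84 and 10.96 (DMSO libraries 1 and 2) against 11.18 and 11.13 (GSK libraries 1 and 2). Both GSK libraries lay above both DMSO libraries, a difference of 0.25 ± 0.055 (log2 ± SE, limma adjusted p = 0.112), or 1.19-fold. Its neighbour Itga2, the alpha2 chain, lies 21 kb away on the same chromosome and had 6.96 and 6.84 in DMSO and 6.93 and 6.76 in GSK, a difference of -0.057 with overlapping groups. Itga11, the collagen receptor chain typical of cancer-associated fibroblasts, had 9.57 and 9.67 (DMSO libraries 1 and 2) against 9.49 and 9.75 (GSK libraries 1 and 2). The GSK libraries enclosed the DMSO libraries, with a difference of -0.0012 and a 95% interval of -0.22 to 0.22, so this design leaves a difference of either sign up to that size. It was 0.13 without GSK library 1 and -0.13 without GSK library 2. Itga10, a chain best known from cartilage, had 6.43 and 6.48 in DMSO and 6.46 and 6.58 in GSK, a difference of 0.067 ± 0.055 (adjusted p = 0.597).

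All 4 laminin-binding chains had both GSK libraries above both DMSO libraries, which held for 24.1% of all genes, and none passed the test. The class median was 0.154, and 0.078 without GSK library 1. The stricter filter (a mean of at least the log2 of 50) dropped Itga3 and Itgb4. Its median of 0.268 is therefore that of Itga6 and Itga7 alone. Itga7, which muscle and smooth muscle cells use to hold laminin, had 8.51 and 8.61 (DMSO libraries 1 and 2) against 8.86 and 8.76 (GSK libraries 1 and 2), a difference of 0.25 ± 0.058 (adjusted p = 0.126). Itga6, which pairs with beta1 or beta4, had 7.91 and 8.12 (DMSO libraries 1 and 2) against 8.48 and 8.12 (GSK libraries 1 and 2). GSK library 1 stood well above the other 3, while GSK library 2 exceeded DMSO library 2 by less than the second decimal shows. Its difference of 0.29 ± 0.12 (adjusted p = 0.332) was 0.11 without GSK library 1 and 0.46 without GSK library 2. Itga3 and Itgb4, the hemidesmosome chain of epithelia, were low at means of 5.06 and 4.84 and differed by 0.059 and 0.048.

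The RGD-binding class held the largest integrin differences, in the beta chains that pair with alphav to bind vitronectin. Itgb5 (chromosome 16, 33829665 to 33949338) had 13.09 and 13.18 (DMSO libraries 1 and 2) against 13.45 and 13.50 (GSK libraries 1 and 2). The groups were apart by more than their spread, with a difference of 0.34 ± 0.057, a 95% interval of 0.20 to 0.48 and a fold change of 1.26 (adjusted p = 0.0688). Itgb3 (chromosome 11, 104608000 to 104670476), which forms the alphavbeta3 receptor, had 11.18 and 11.26 (DMSO libraries 1 and 2) against 11.66 and 11.44 (GSK libraries 1 and 2). Both GSK libraries were above both DMSO libraries, and the difference of 0.33 ± 0.077 (adjusted p = 0.126) was 0.22 without GSK library 1. Their partner Itgav had 11.78 and 11.69 (DMSO libraries 1 and 2) against 11.80 and 11.80 (GSK libraries 1 and 2), a difference of 0.064 ± 0.049 (adjusted p = 0.571). Both GSK libraries were above both DMSO libraries by a narrow margin, and the difference between the partners was not tested.

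Itga5, which pairs with Itgb1 as the main fibronectin receptor, had 14.28 and 14.43 (DMSO libraries 1 and 2) against 14.34 and 14.31 (GSK libraries 1 and 2). The GSK libraries lay between the DMSO libraries, with a difference of -0.028 ± 0.072 (adjusted p = 0.877) that was 0.044 without DMSO library 2. Itgb1 (chromosome 8, 128685654 to 128733200) itself had 14.93 and 14.95 (DMSO libraries 1 and 2) against 15.08 and 14.996 (GSK libraries 1 and 2), a difference of 0.099 ± 0.070 with a 95% interval of -0.070 to 0.27 (adjusted p = 0.534). Itga8, a chain of contractile mesenchymal cells, had 6.42 and 6.42 in DMSO and 6.49 and 6.59 in GSK, a difference of 0.12 (adjusted p = 0.305). Itgb8, which helps release active TGF-beta, was at a mean of 6.11, and its difference of 0.040 was -0.095 without GSK library 1.

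Of the 3 chains outside those classes, Itga9, a receptor chain for tenascin-C and osteopontin, had 11.24 and 11.23 (DMSO libraries 1 and 2) against 11.43 and 11.40 (GSK libraries 1 and 2). Its replicates lay close together and the groups were apart, with a difference of 0.18 ± 0.042 (adjusted p = 0.127). Itga4, the VCAM-1 receptor chain of leukocytes and some mesenchymal cells, had a mean of 5.88 and a difference of 0.0078, which was -0.066 without DMSO library 1. Itgb7, the leukocyte partner of Itga4, had 4.02 and 4.07 in DMSO and 4.11 and 4.06 in GSK, a difference of 0.038 (adjusted p = 0.558). The integrin chains specific to leukocytes were below the limit for testing in the mean: Itgal was at 2.59, Itgam at 1.46, Itgax at 2.23, and their common beta chain Itgb2 ran from 3.31 to 3.34 over the libraries. The log2 of the summed leukocyte markers was 10.78 and 10.55 in DMSO and 11.85 and 11.21 in GSK, which is nearly the level of Cd53 alone (10.70 and 10.46 in DMSO and 11.81 and 11.15 in GSK, adjusted p = 0.116). The other 5 tested leukocyte markers differed by -0.026 (Lcp1) to 0.070 (Ptprc), and their part in the values of Itga4 and Itgb7 was not tested. Itga2b, the platelet chain, was higher, at 6.75, close to the platelet glycoprotein gene Gp1bb at 6.78; the 4 other platelet markers, Pf4, Ppbp, Gp9 and Gp1ba, were below the limit.

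**Figure D3:**
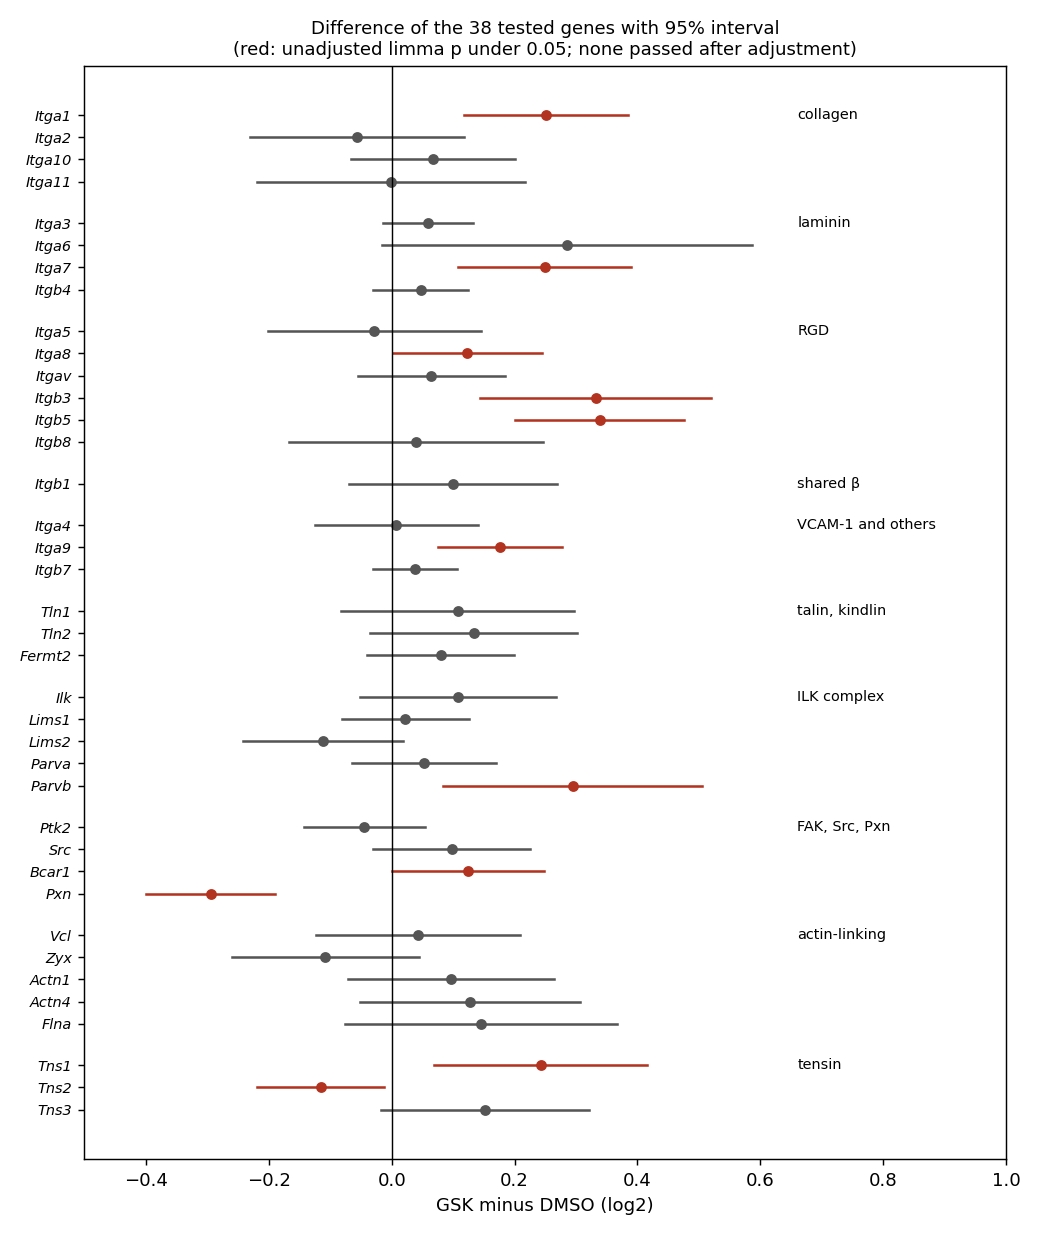
GSK minus DMSO (horizontal axis, log2) with limma's 95% interval for the 38 tested genes, grouped by ligand or role; red marks an unadjusted p under 0.05. Itgb5 and Itgb3 lie farthest right at 0.34 and 0.33, Pxn farthest left at -0.29, and no gene passed after adjustment over all genes tested.

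The proteins that switch integrins on gave small positive differences in 3 of 3 tested genes, where 49.5% of all genes were positive. The class median was 0.107, 0.052 without DMSO library 1 and 0.201 without DMSO library 2. Tln1, the main talin, had 13.51 and 13.69 (DMSO libraries 1 and 2) against 13.66 and 13.75 (GSK libraries 1 and 2). DMSO library 1 was the lowest and DMSO library 2 lay between the GSK libraries. The difference of 0.11 ± 0.078 (adjusted p = 0.545) was 0.014 without DMSO library 1. Tln2 had 11.95 and 12.12 in DMSO and 12.12 and 12.22 in GSK, a difference of 0.13 ± 0.070 (adjusted p = 0.406) that was 0.052 without that library. Fermt2, the kindlin of mesenchymal cells, had 12.74 and 12.79 in DMSO and 12.84 and 12.86 in GSK, a difference of 0.080 ± 0.049 (adjusted p = 0.478).

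In the complex of integrin-linked kinase, PINCH and parvin, which couples beta tails to actin, 3 of 5 genes had both GSK libraries higher and 1 had both lower, against 24.1% and 24.5% of all genes. Parvb, beta-parvin, had 8.24 and 8.33 (DMSO libraries 1 and 2) against 8.71 and 8.46 (GSK libraries 1 and 2). GSK library 1 was the highest, and the difference of 0.29 ± 0.087 (adjusted p = 0.183) was 0.17 without it. Parva, the alpha form, differed by 0.052, with a 95% interval of -0.064 to 0.17. Ilk had 12.42 and 12.57 in DMSO and 12.56 and 12.64 in GSK, a difference of 0.11 ± 0.066 (adjusted p = 0.471), which was 0.033 without DMSO library 1. Lims2, the less abundant PINCH gene, had 8.18 and 8.28 in DMSO and 8.15 and 8.09 in GSK, a difference of -0.11 ± 0.054 (adjusted p = 0.374), while Lims1 differed by 0.022, its groups apart by less than 0.001.

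Among the signalling components Pxn (chromosome 5, 115506676 to 115555987), which encodes the scaffold paxillin, was lower in GSK in both libraries. It had 10.70 and 10.64 (DMSO libraries 1 and 2) against 10.37 and 10.38 (GSK libraries 1 and 2), and the GSK replicates differed by less than 0.01. The difference was -0.29 ± 0.043, with a 95% interval of -0.40 to -0.19, 1.23-fold lower, and missed the threshold (adjusted p = 0.0578). It lay between -0.32 and -0.27 with each library left out, so no single library set its direction. The kinase that binds paxillin, Ptk2 (focal adhesion kinase), had 10.79 and 10.78 in DMSO and 10.74 and 10.75 in GSK, a difference of -0.044 ± 0.041 (adjusted p = 0.635). Its GSK libraries were both lower, but all 4 libraries lay within 0.06 of each other. Bcar1, the p130Cas scaffold, had 10.71 and 10.79 in DMSO and 10.84 and 10.91 in GSK, a difference of 0.12 ± 0.051 (adjusted p = 0.308), and Src differed by 0.098 (adjusted p = 0.424).

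Of the actin-linking genes, 4 of 5 had positive estimates, where 49.5% of all genes did. The class median of 0.096 was 0.018 without DMSO library 1. Flna, filamin A, had 15.39 and 15.57 (DMSO libraries 1 and 2) against 15.58 and 15.66 (GSK libraries 1 and 2). DMSO library 1 stood lowest and the groups did not overlap, with a difference of 0.15 ± 0.091 (adjusted p = 0.481) that was 0.056 without it. Vcl, vinculin, had 12.26 and 12.43 (DMSO libraries 1 and 2) against 12.36 and 12.41 (GSK libraries 1 and 2). The groups overlapped, and the difference of 0.043 (adjusted p = 0.797) was -0.044 without DMSO library 1. Zyx, the tension-sensitive adaptor zyxin, had both GSK libraries lower, with 12.67 and 12.80 in DMSO and 12.59 and 12.66 in GSK, a difference of -0.11 ± 0.063 (adjusted p = 0.449). Actn4 had 13.02 and 13.18 in DMSO and 13.17 and 13.28 in GSK, a difference of 0.13 ± 0.074 (adjusted p = 0.451), and Actn1, the other actinin, differed by 0.096. Some values are uncertain because 12 members share a stretch with another gene. The strand setting of the counting is not given in the sources used here. On the opposite strand Vcl shares 2094 bases with Ap3m1, Itga4 908 with Cerkl, Ilk 761 with Taf10 and Itgav 637 with Gm13684. There too Tln1 shares 360 with Creb3, Itga8 346 with E030013I19Rik, Actn4 316 with Capn12 and Actn1 369 with Gm47766 at 99.5% identity. On the same strand Itgb5 shares 343 bases at 99.7% identity with the processed pseudogene Gm38317, which was at 2.68. Itga1 shares 451 with Gm49395, Itga10 719 with Gm42957, and Itga6 326 with the processed pseudogene Gm29397 and shorter stretches with other genes.

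The tensins, which tie integrin tails to actin in mature and fibrillar adhesions, had estimates of both signs, and none passed the test. Tns1 had 12.43 and 12.60 (DMSO libraries 1 and 2) against 12.71 and 12.80 (GSK libraries 1 and 2), both GSK libraries above both DMSO libraries, with a difference of 0.24 ± 0.071 (adjusted p = 0.183). Without DMSO library 1 it was 0.16. Tns2 had 11.06 and 11.03 in DMSO and 10.91 and 10.94 in GSK, both GSK libraries below, with a difference of -0.12 ± 0.043 (adjusted p = 0.264). Tns3 differed by 0.15 (adjusted p = 0.356).

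**Figure D4:**
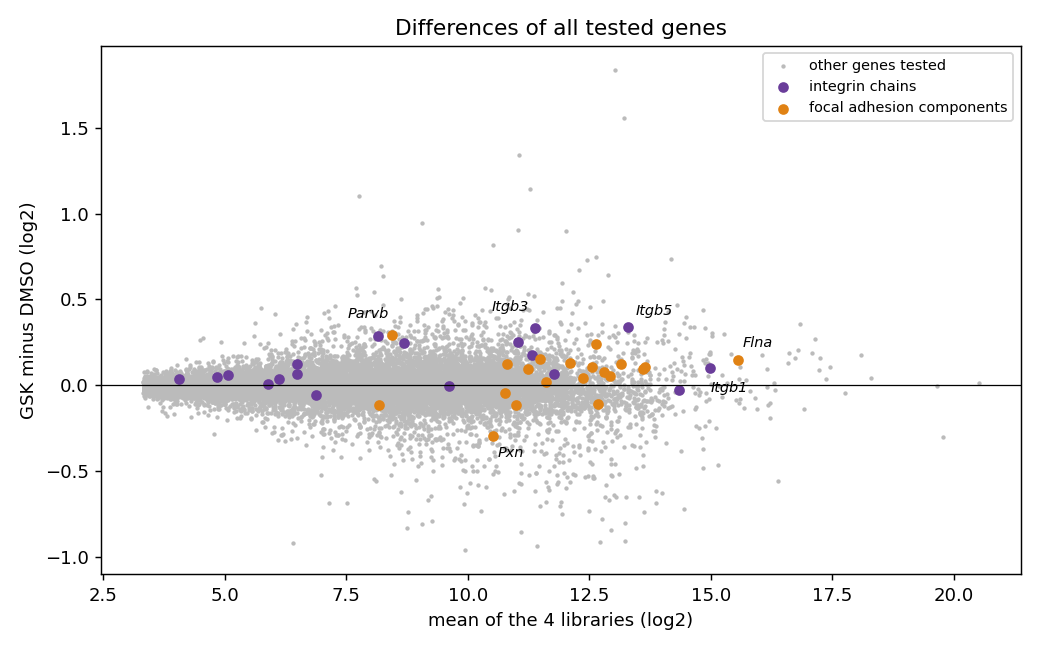
Mean of the 4 libraries (horizontal axis, log2) against GSK minus DMSO (vertical axis, log2) for the 14548 tested genes (grey), with the 18 tested integrin chains in purple and the 20 tested focal adhesion genes in orange. The coloured points lie within the grey cloud, from -0.29 (Pxn) to 0.34 (Itgb5).

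Promoter windows from RefSeq (GRCm38.p6, 250 bases before to 50 after the start) were found for 31 of the 40 genes, in 37 windows; Itga6, Itga7, Itgb4, Itgb3, Tln2, Lims2, Parva, Ptk2 and Pxn had none in the table. They were searched on both strands for the CArG box, bound by serum response factor, for TGANTCA (AP-1) and for GGAATG (TEAD). A CArG box was in 3 member windows (8.11%; 1.63% of all 32851 windows), those of Vcl, Fermt2 and Itgb6. TGANTCA was in 4 (10.8%; 7.81% of all) and GGAATG in 5 (13.5%; 14.7% of all). A match is a description of letters only. The windows that follow, 5′ to 3′ with matches in capitals, are those of Vcl and Fermt2, the tested genes with a CArG box, of Zyx, which holds TGAGTCA, and of Itgb5, the integrin with the largest difference, in which none of the 3 motifs was found.
Vcl (chr14:20929148-20929447, plus strand): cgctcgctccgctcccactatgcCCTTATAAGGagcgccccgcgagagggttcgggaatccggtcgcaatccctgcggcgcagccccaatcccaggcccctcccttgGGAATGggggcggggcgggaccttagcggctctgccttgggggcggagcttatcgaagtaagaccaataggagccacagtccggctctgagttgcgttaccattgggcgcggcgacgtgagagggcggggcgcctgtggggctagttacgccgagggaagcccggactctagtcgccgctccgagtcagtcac
Fermt2 (chr14:45530016-45530315, minus strand): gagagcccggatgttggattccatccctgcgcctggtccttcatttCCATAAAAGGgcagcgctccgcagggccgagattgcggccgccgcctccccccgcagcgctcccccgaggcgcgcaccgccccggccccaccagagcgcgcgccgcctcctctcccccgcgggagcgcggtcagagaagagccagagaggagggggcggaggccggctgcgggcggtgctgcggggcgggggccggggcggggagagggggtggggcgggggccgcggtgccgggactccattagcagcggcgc
Zyx (chr6:42349578-42349877, plus strand): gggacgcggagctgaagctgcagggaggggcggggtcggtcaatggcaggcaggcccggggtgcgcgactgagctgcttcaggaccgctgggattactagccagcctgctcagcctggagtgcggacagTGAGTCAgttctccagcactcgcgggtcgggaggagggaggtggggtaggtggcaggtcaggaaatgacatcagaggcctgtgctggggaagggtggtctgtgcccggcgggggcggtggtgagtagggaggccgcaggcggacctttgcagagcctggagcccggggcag
Itgb5 (chr16:33829415-33829714, plus strand): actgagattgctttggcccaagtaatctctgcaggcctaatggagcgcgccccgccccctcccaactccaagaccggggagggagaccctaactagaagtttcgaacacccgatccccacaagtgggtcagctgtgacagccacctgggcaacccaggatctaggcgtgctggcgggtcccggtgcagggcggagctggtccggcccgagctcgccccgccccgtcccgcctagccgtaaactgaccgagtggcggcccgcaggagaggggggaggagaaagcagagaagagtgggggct
Counted from the start site, the CArG box begins at -227 in Vcl and -204 in Fermt2, and the AP-1 match at -121 in Zyx. The differences of these 4 genes were 0.043, 0.080, -0.11 and 0.34.

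Other genes of the pathway gave no call either. Of 54 tested focal adhesion components outside the set, none passed the threshold, 5 were higher and 6 lower at an unadjusted p under 0.05 (7.88% and 8.13% of all genes were), and the median was 0.023. Lpp, a zyxin relative, had 12.55 and 12.60 (DMSO libraries 1 and 2) against 12.93 and 12.93 (GSK libraries 1 and 2), a difference of 0.36 ± 0.049 (adjusted p = 0.0564), and lay on the opposite side from Zyx. Nexn, the actin-binding nexilin, differed by 0.28 ± 0.048 (adjusted p = 0.0703), Flnc, filamin C, by -0.26 ± 0.055 (adjusted p = 0.104) and Fyn, a Src-family kinase, by -0.18 ± 0.043 (adjusted p = 0.137).

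The ligands of the receptors were compared by the same classes. None of 15 genes listed as ligands of RGD-binding integrins passed. The list includes Ccn1, Ccn2 and Postn, and its genes were not checked for the RGD motif itself. At an unadjusted limma p under 0.05, 6 of the 15 were higher and none was lower, against 7.88% and 8.13% of all genes. The median was 0.168, 0.102 without DMSO library 1 and 0.090 after quantile normalisation. Tgfb1, whose latent peptide carries RGD, had 12.21 and 12.39 (DMSO libraries 1 and 2) against 12.60 and 12.59 (GSK libraries 1 and 2), a difference of 0.29 ± 0.067 (adjusted p = 0.12). Tgfb3 differed by 0.36 ± 0.084, Mfge8, a secreted ligand of alphavbeta3 and alphavbeta5, by 0.30 ± 0.072, and the low Ibsp by 0.17 ± 0.032 (adjusted p = 0.127, 0.135 and 0.084). Of 10 collagen ligand genes 8 had positive estimates, against 49.5% of all genes, and none passed the threshold. Their median was 0.117, and 0.069 after quantile normalisation. DMSO library 1 was the lowest in 7 of the 10, and in 27.4% of all genes. Col4a2, Col6a3, Col6a1 and Col4a1 differed by 0.16, 0.27, 0.19 and 0.13. Col3a1, named after its values were seen, had the largest difference of the list and the opposite sign, -0.30 (limma adjusted p = 0.512), with both GSK libraries lower. Col1a1 and Col1a2, also named after their values were seen, differed by 0.016 and -0.0010 with overlapping groups. Of 11 laminin genes 5 were positive and 6 negative (none past the threshold), with a median of -0.021 that was 0.009 without DMSO library 1 and 0.004 after quantile normalisation. Lama5 differed by 0.15 ± 0.051 (adjusted p = 0.22), Lamc3 by 0.32 and Lama3 by 0.055. Of the collagen receptors that are not integrins, Ddr2, a collagen-activated kinase, differed by -0.14 ± 0.070 (adjusted p = 0.385), Ddr1 by 0.093 and the uptake receptor Mrc2 by 0.057.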

How the data were processed

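RNA of 4 libraries was sequenced, 2 per group, grouped by the labels' titles. The authors deposited normalised values on a log2 scale, 1 column per library, for 22456 Ensembl genes; per the submitters' processing notes RSEM 1.2.29, Bowtie2, DESeq2 1.12.4, mm10 and GRCh38 were used, without roles. The unit was taken from the values (-1.035 to 20.58, library medians 6.152 to 6.164). The transformation is not given in the sources used here; low genes vary less (median range over libraries 0.0178 below the limit, 0.113 for tested genes), as in values shrunken towards a mean, which would understate differences, most for low genes. No count was available, so read depth and its precision are unknown.

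Symbols and positions came from GENCODE M21 on GRCm38, where 22357 identifiers matched. Genes with a mean of at least the log2 of 10 (14548) were tested on the log2 values, without a pseudocount, in R 4.3.3 with limma 3.58.1: group as the only term, a variance prior that follows the mean, two-sided p-values, Benjamini-Hochberg adjustment over all tested genes, threshold 0.05. SE is limma's moderated standard error, and folds were obtained by taking differences off the log2 scale. A summed marker level is the log2 of the sum of the values taken off the log scale. Shared transcript stretches (at least 98% identity over 200 bases) were found with blastn 2.17.0. For GSK against DMSO the fit was tested on simulated data (200 changed among 14548 genes). It found 32% at a log2 change of 0.25, 98% at 0.5 and 100% at 1, with 10 false calls. The simulated noise followed limma's own variance prior and was independent between libraries. Deviations shared between libraries were therefore not simulated.

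Genes given in full were, in each class, the 2 with the smallest p and a list of core members; of other pathway lists, up to 4 with the smallest p; 1 gene that this rule names and 1 pathway list are not reported here. The members and lists were chosen with earlier results of these data known. Alternatives were other filters, quantile and trimmed-mean (TMM-like) scaling, other variance priors, a block for the replicate number, leaving out single libraries, a looser threshold and other lengths; the longest transcript was added after seeing the data. Protein sequences were not used here.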

Additional observations from a re-analysis of the deposited data

How the results depend on the processing

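No tested integrin or focal adhesion gene passed the threshold with a stricter filter, no filter, quantile or TMM-like scaling, a variance prior without trend, or any library left out (0 genes in each). With a robust prior 1 passed, Pxn (adjusted p = 0.0461), where 138 of all genes did (0.949%), and at a threshold of 0.10 2 passed, Pxn and Itgb5, of 363 genes in all (2.50%). The count over all genes, 41, was 1 with no filter, 23 after quantile normalisation, 11 without trend, and 7 to 194 (0.0481% to 1.33%) with a library left out. The median difference of the 38 genes, 0.088, ran from 0.05 without DMSO library 1 to 0.118 without DMSO library 2, and from 0.088 to 0.109 under the other alternatives.

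With the replicate number as a block 1374 genes passed (9.44%), 8 of them in the set: Itgb5, Pxn, Tns1, Itga1, Itgb3, Itga9, Itga7 and Tns3 (adjusted p from 0.00246 to 0.036), 7 higher and only Pxn lower. The same numbers recur in the titles of both groups, but the labels do not say whether equal numbers pair libraries. With 2 pairs the correlation of deviations between libraries of the same number (0.428) does not settle it.

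Leaving out a library changed the sign of small estimates: Itga2 ran from -0.14 to 0.029, Itga11 from -0.13 to 0.13, Itga5 from -0.10 to 0.044, Itgb8 from -0.095 to 0.17, Itga4 from -0.066 to 0.081 and Vcl from -0.044 to 0.13; for the collagen receptor the difference of Mrc2 ran from -0.0008 to 0.12. The cause was not tested. Levels per kb moved by more than the spread between libraries in 22 of 40 genes with the longest transcript and 37 with the union of exons. With 2 libraries a group, differences near 0.25 were often missed in the simulation, whose noise was independent between libraries.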
